A study of Mus musculus with 9 samples.

Results

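This account covers testes of mice that carry the Prm2Δc allele, compared with wild-type (WT) testes. All 6 RNA-seq libraries whose label gave a mutant genotype were pooled as carriers, out of 9 libraries in the series, and were set against the 3 WT libraries. The carriers were 3 Prm2+/Δc and 3 Prm2-/Δc testes. The labels call them het and hom, and the study's lists pair hom with Prm2-/Δc. They share the Δc allele and differ in the second allele, so the pooled comparison asks which transcripts differed from WT in carriers of Δc whatever the other allele was.

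The study removed the region of Prm2 that encodes the cleaved part of protamine 2, named cP2, with CRISPR/Cas9, a pair of guide RNAs and a single-stranded repair template, so that only the mature protein is encoded. Founders came from C57Bl/6 and DBA2 F1 embryos and the line was backcrossed to C57Bl/6J, and the labels give a C57BL/6 background for all 9 testes. In Prm2-/Δc males the second allele is a Prm2 deletion allele, so hom in the labels is not taken here to mean that both copies are Δc. RNA came from whole testes after removal of the tunica albuginea and was made into 3′ tag libraries. The study's methods describe adult males, and the labels do not state that each library is a separate animal, so p-values measure the spread between these libraries.

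Protamines are small arginine-rich proteins that replace histones and transition proteins in the nuclei of late spermatids and compact sperm DNA. Mouse protamine 2 is made as a precursor whose N-terminal part is cut off stepwise after it is laid down on DNA. Transcripts of both protamines are made in round spermatids, stored, and translated later, when the nucleus elongates and transcription stops.

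The edit lies at the start of the Prm2 coding sequence, and the 2 guides of the study's oligo list are shown to place it. On GRCm38, gRNA1 lies on the plus strand at chr16:10791978-10791997 and covers coding bases 2 to 21 on the strand opposite to the transcript. The other guide, gRNA2, lies on the minus strand at chr16:10791867-10791885 and covers coding bases 114 to 132. Both sites are in the coding part of an exon of Prm2. Capitals mark the bases next to each guide that match the NGG motif Cas9 requires.

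gRNA1: cctcattcggtagcgaaccaTGG

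gRNA2: ggactatgggaggacacacAGG

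The coding start of Prm2 is shown on the minus strand from chr16:10791998 down to 10791858, from the GENCODE vM21 transcript, with the 125 bases between the predicted cut sites in capitals. The first cut leaves 4 coding bases before it, and 385 of the 621 bases of transcript Prm2-201 lie after the second. The exact edited sequence was not read here.

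Prm2 coding start: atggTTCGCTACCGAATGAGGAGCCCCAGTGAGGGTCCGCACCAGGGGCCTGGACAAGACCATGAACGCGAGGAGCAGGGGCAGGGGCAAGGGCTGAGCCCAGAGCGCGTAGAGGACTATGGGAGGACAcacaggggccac

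Library totals were 9070746, 11314641 and 16799651 estimated counts in WT replicates 1 to 3, 12041708, 16347645 and 20320362 in Prm2+/Δc, and 14789266, 17441824 and 12409510 in Prm2-/Δc. The table held 50485 rows, of which 25503 carried only a locus number from transcript assembly and 24982 were listed by an Ensembl identifier. These Ensembl rows took 0.391% of the counts, and 150 numbered loci could be named through the study's lists of differentially expressed genes. Of the 18603 rows with enough counts to be tested, 2141 (11.5%) had a name. Because those lists were drawn up from these same libraries, a named locus is likelier to be one that differed, and that naming is no independent evidence for any gene below.

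The 9 libraries did not separate by carrier status. Pearson correlations across loci of log2 CPM, scaled by TMM, were 0.899 to 0.907 among the 3 WT libraries and 0.892 to 0.931 over the 18 pairs of a WT and a carrier library. Pairs within 1 carrier genotype gave 0.889 to 0.930. In multidimensional scaling on 500 loci per pair, the first axis held 16.5% and the second 13.6% of the variance, and WT and carrier libraries both lay on either side of the first axis. Prm2-/Δc replicate 3 stood apart in another way: of 12654 loci averaging at least 50 counts, 45 were over 4-fold above every other library there, against 1 to 9 in each of the other libraries. It also had the lowest share of counts in the most abundant locus, 2.50%, where the highest share was 10.6%. Prm2-/Δc replicate 1 had the most loci over 4-fold below all others, 84, against 25 to 52 elsewhere.

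**Figure D1:**
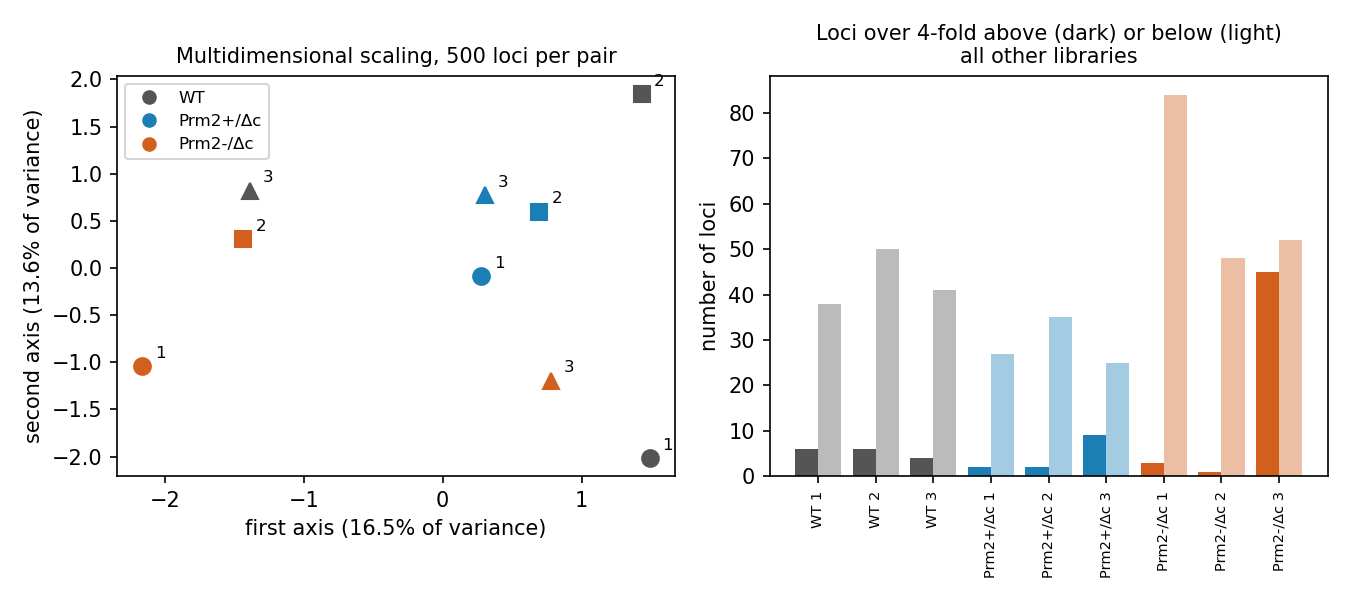
Left, multidimensional scaling of the 9 libraries, with the share of variance on each axis (colour, genotype; number and shape, replicate). Right, number of loci over 4-fold above (dark bars) or below (light bars) all other libraries; Prm2-/Δc replicate 3 has 45 above and Prm2-/Δc replicate 1 has 84 below.

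Prm2 itself was examined first. Its locus is in none of the names used here, so it was read from locus order along chromosome 16: between the nearest named loci lie 104 numbered loci, among them 1 run of 4 with at least 9369 counts in every library, flanked by 5 loci on each side that reach at most 383. GENCODE vM21 lists Tnp2, Prm3, Prm2 and Prm1 in that order here, and 130 of 130 neighbouring pairs of named loci followed the order of the annotation. The names of these 4 loci therefore rest on order and abundance, and remain a reading.

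The locus read as Prm2, MSTRG.8527, annotated at chr16:10791380-10796134 on the minus strand, had normalised read counts (counts divided by size factors of the libraries) of 109802, 100886 and 122024 in WT replicates 1 to 3. Carriers had a lowest count of 92847, a median of 111017 and a highest of 128477. The groups overlapped, with WT inside the range of carriers. The log2 fold change was -0.02 (SE 0.11), and the exact two-sided permutation test over the 84 ways to choose 3 of 9 libraries gave p = 0.881, where the smallest p this design allows is 0.0238. Side by side, sharing the WT libraries, the log2 fold changes were -0.15 in Prm2+/Δc and 0.10 in Prm2-/Δc. Normalised counts were 92847, 101271 and 106746 in Prm2+/Δc and 115288, 115348 and 128477 in Prm2-/Δc. The carrier genotypes thus did not overlap, with a log2 difference of 0.25 (SE 0.10; adjusted p = 0.9996 by the quasi-likelihood test of edgeR with Benjamini-Hochberg adjustment; higher in 3 of 3 Prm2-/Δc libraries), which was not called. Without WT replicate 3 the pooled value was 0.05, without Prm2+/Δc replicate 1 it was 0.03 and without Prm2+/Δc replicate 2 it was 0.01, so its sign was not fixed. Libraries of 3′ tags count the end of the transcript, which lies outside the deleted part, so this count does not check the genotype labels.

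The locus read as Tnp2, which encodes a transition protein that sits on DNA between histones and protamines, had 77215, 75341 and 77362 normalised counts in WT and 71329 to 91088 in carriers, with a median of 83146. The locus read as Prm1, the other protamine, had 216831, 260221 and 194801 in WT and 162399, 203853 and 435441 as lowest, median and highest in carriers, the highest being Prm2-/Δc replicate 3. The locus read as Prm3, a gene between them, had 14019, 13848 and 16628 in WT and 10320, 13689 and 15446 in carriers. All 3 overlapped between the groups. Their log2 fold changes were 0.11, 0.08 and -0.14, with exact permutation p of 0.214, 0.857 and 0.333, and over the 4 loci of the cluster the Benjamini-Hochberg adjusted values were 0.667 for Tnp2 and Prm3 and 0.881 for Prm1 and Prm2. Prm1 was at -0.18 without Prm2-/Δc replicate 3 and at -0.01 without WT replicate 3.

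Across all loci, 5 of 18603 were called (0.0269%) by the quasi-likelihood test of edgeR with Benjamini-Hochberg adjustment, with cutoffs of 0.05 for the adjusted p and 1 for the size of the log2 fold change. Gm37933, Pcgf5 and Eri3 were higher in carriers (0.0161%), and Fam110b and Rps20 were lower (0.0108%). For every 1 of these, all 6 carriers lay outside the range of WT, which held for 212 loci with carriers higher (1.14%) and 194 with carriers lower (1.04%) in all. At an unadjusted p under 0.05, 343 loci were higher (1.84%) and 311 lower (1.67%), and with scaling by library totals these were 267 and 387. The median log2 fold change over all loci was 0.00, the median of its absolute size was 0.18, and 1018 loci (5.47%) passed 1 in either direction. In whole testis, fewer cells that make a transcript and less of it in each cell cannot be told apart.

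The count of 5 moved with single libraries. It was 18 without WT replicate 1, 22 without WT replicate 3 and 9 without Prm2-/Δc replicate 3, and each of these fits still held the 5. Each of the other 6 fits with 1 library left out held 4 of them, with 4 to 7 calls in all, and glmTreat of edgeR, which tests against a log2 fold change of 1, called 3 loci, all among the 5. DESeq2 called 37 loci, 20 higher and 17 lower, among them the same 5. With a block on replicate number, the quasi-likelihood test of edgeR called 0 loci. The 5 then had adjusted p of 0.0613 to 0.0858 in that test with Benjamini-Hochberg adjustment. Their log2 fold changes, and why the numbers are not taken to pair the libraries, are given at the end. The relative spread between libraries of a group, as the square root of the common dispersion that edgeR estimated, was 0.453.

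**Figure D2:**
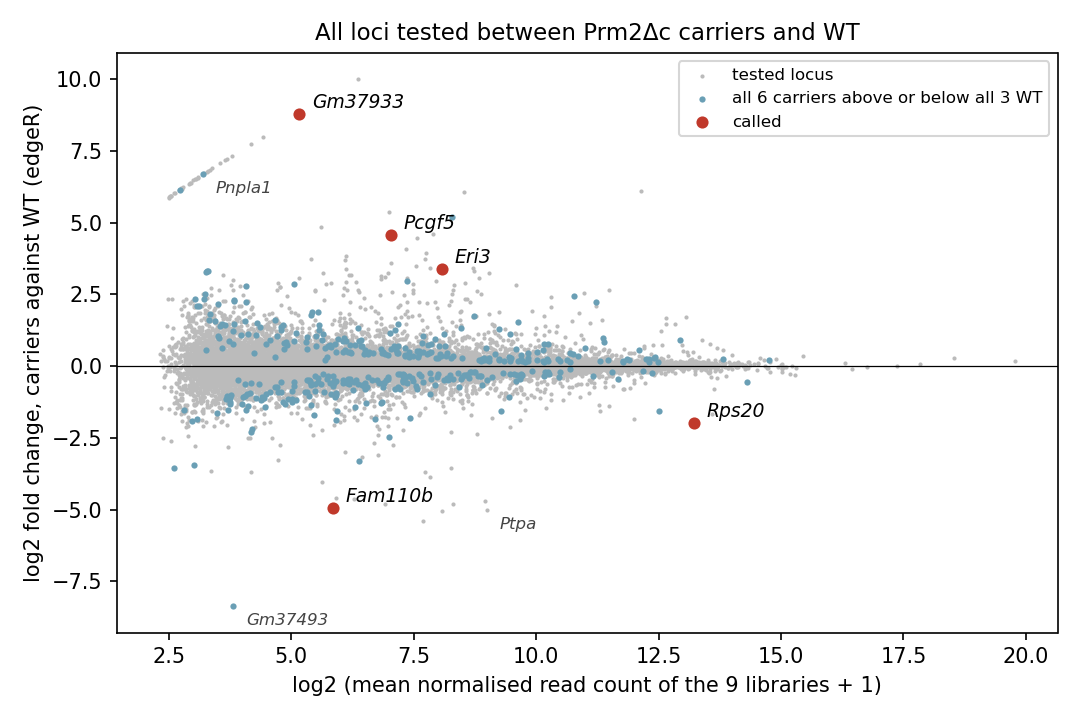
Each point is 1 of 18603 loci: log2 of the mean normalised read count over the 9 libraries plus 1 on the x axis, log2 fold change of carriers against WT on the y axis. Red, the 5 called loci; blue, other loci with all 6 carriers above or below all 3 WT libraries; the straight line of points at the upper left consists of loci with few or no counts in WT.

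Rps20, a protein of the small ribosomal subunit (chr4:3831334-3835665, minus strand), was the most abundant of the 5. Its normalised read counts were 18112, 19197 and 19756 in WT, 4248, 5235 and 4581 in Prm2+/Δc and 5410, 3192 and 6067 in Prm2-/Δc. Every carrier lay at least 2.99-fold below the lowest WT library. The log2 fold change was -1.99 (SE 0.17; adjusted p = 0.00406 by the quasi-likelihood test of edgeR with Benjamini-Hochberg adjustment; lower in 6 of 6 carriers). Mean counts were 19022 ± 836 in WT (SD, n = 3) and 4789 ± 1010 in carriers (SD, n = 6). The difference of means, -14233 normalised counts, was the largest among all loci whose groups did not overlap, and the largest gain among such loci was 4387.

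Fam110b, of a gene family whose proteins locate to centrosomes (chr4:5644090-6108223, plus strand), had 163, 145 and 176 normalised counts in WT. Carriers had 5.66, 6.01 and 2.11 in Prm2+/Δc and 4.83, 3.29 and 9.78 in Prm2-/Δc. The locus was close to absent in every carrier, and the highest carrier lay 14.8-fold below the lowest WT library. Its log2 fold change of -4.94 (SE 0.36) had an adjusted p of 0.00282 by the quasi-likelihood test of edgeR with Benjamini-Hochberg adjustment, the lowest of all loci, with 6 of 6 carriers lower.

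Pcgf5, a Polycomb group RING finger protein of a variant Polycomb repressive complex (chr19:36348309-36460970, plus strand), had 7.48, 10.8 and 5.74 normalised counts in WT, 268, 199 and 259 in Prm2+/Δc and 101, 188 and 136 in Prm2-/Δc. All carriers were high, with the lowest 9.35-fold above the highest WT library, and the lowest Prm2+/Δc library lay above the highest Prm2-/Δc library. By the quasi-likelihood test of edgeR with Benjamini-Hochberg adjustment the log2 fold change was 4.57 (SE 0.44, adjusted p = 0.00796, higher in 6 of 6 carriers). Between the carrier genotypes the log2 difference, Prm2-/Δc minus Prm2+/Δc, was -0.77 (SE 0.29), and the adjusted p was 0.9996 in the same test.

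Eri3, a member of the ERI family of exoribonucleases (chr4:117550365-117674297, plus strand), had 53.9, 39.8 and 17.2 normalised counts in WT. It had 410, 397 and 408 in Prm2+/Δc and 386, 486 and 216 in Prm2-/Δc. The carriers lay at least 4.01-fold above every WT library, with Prm2-/Δc replicate 3 the lowest of them. Its log2 fold change was 3.39 (SE 0.40; adjusted p = 0.0415 by the quasi-likelihood test of edgeR with Benjamini-Hochberg adjustment; higher in 6 of 6 carriers). This was the weakest of the 5 calls: it was lost without WT replicate 2, without any 1 of the 3 Prm2+/Δc libraries, and without Prm2-/Δc replicate 1 or 2. With 1 library left out, its adjusted p in the quasi-likelihood test of edgeR with Benjamini-Hochberg adjustment ranged from 0.0150 to 0.182. Its log2 fold change lay between 3.03 and 3.76 in these fits. The other 4 loci were called in 9 of 9 such fits.

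Gm37933, a long intergenic noncoding RNA (chr3:86142757-86145545, plus strand), had no count in any of the 3 WT libraries. Carriers had 47.5, 47.2 and 52.9 normalised counts in Prm2+/Δc and 47.3, 50.9 and 68.4 in Prm2-/Δc. It was thus present at a similar level in all 6 carriers and undetected in WT, and taking 3 counts per WT library, summed over the group, as the floor, carriers were at least 15.7-fold higher. The fitted log2 fold change of 8.77 (SE 0.51; adjusted p = 0.00312 by the quasi-likelihood test of edgeR with Benjamini-Hochberg adjustment; higher in 6 of 6 carriers) depends on the prior count and is not that bound.

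**Figure D3:**
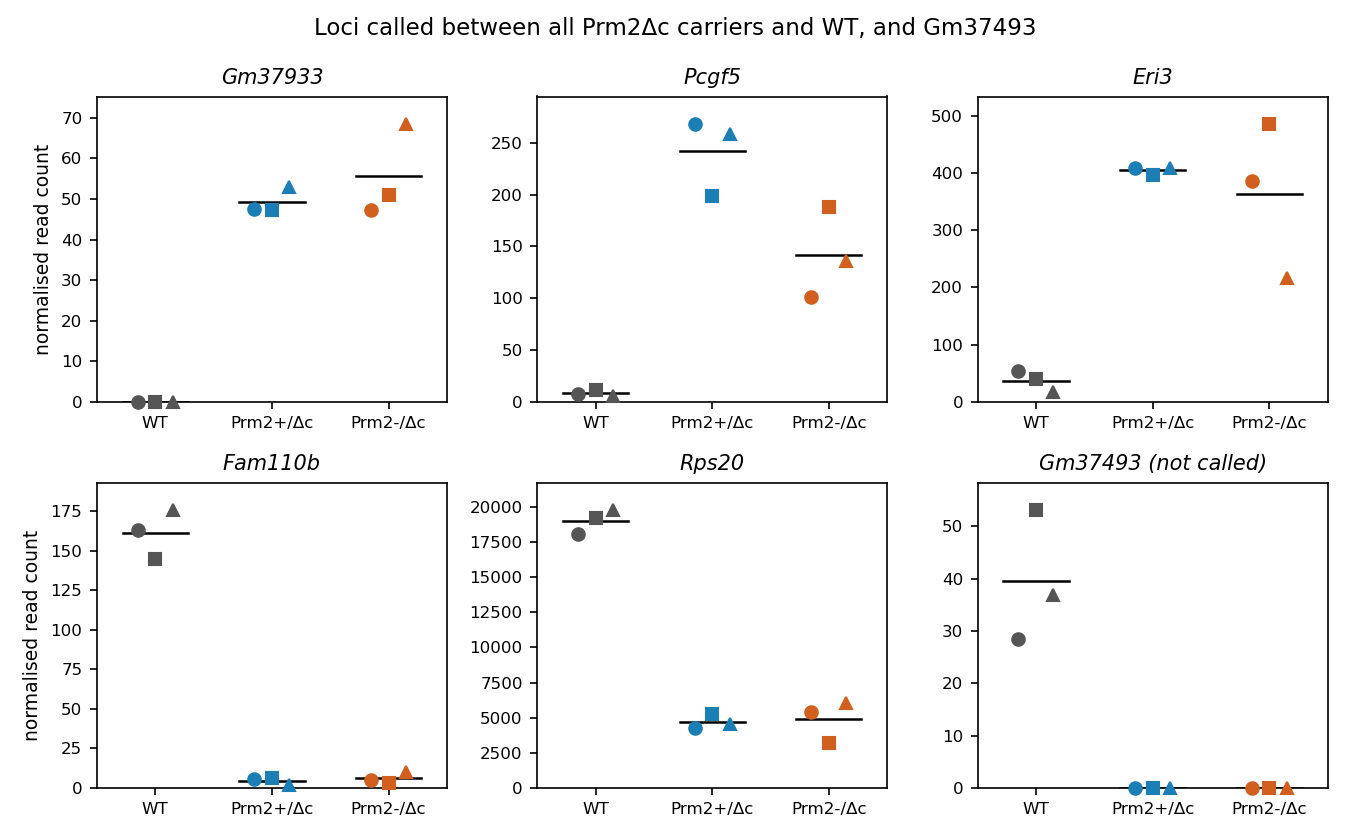
Normalised read counts of the 5 called loci and of Gm37493, which overlaps Gm37933 and was not called, in each library (points; shape, replicate) with group means (lines). Each panel has its own scale; the 6 carriers lie outside the range of WT in every panel.

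The locus next to Gm37933 in locus order showed the opposite pattern. Gm37493, a processed pseudogene on the other strand (chr3:86144937-86145369, minus strand), had 28.4, 53.0 and 36.9 normalised counts in WT and none in any carrier. Against the same floor of 3 counts per library, summed over the carriers, it was at least 14.7-fold lower. It was not called (adjusted p = 0.494 by the quasi-likelihood test of edgeR with Benjamini-Hochberg adjustment, lower in 6 of 6 carriers). DESeq2 called it, and its adjusted p over the settings other than leaving out a library ranged from 9.56e-10 to 0.9998 by either tool with Benjamini-Hochberg adjustment.

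These 2 genes overlap: 356 of the 433 bases of Gm37493 lie within exons of Gm37933. Whether the authors' counting used strand is not given in the sources used here, and without strand, reads in the shared bases cannot be told apart. The sum of both was 28.4, 36.9 and 53.0 in WT, in order of size, and 47.2, 49.2 and 68.4 as lowest, median and highest in carriers. On this sum the groups overlapped, and the exact permutation test, two-sided, gave p = 0.143. Since each gene was at 0 in 1 group, this sum sets Gm37493 in WT against Gm37933 in carriers, and where the reads of either fell was not tested. As genes that overlap, with the strand of counting not known here, both are uncertain. Their 3′ ends lie 608 bases apart and are shown because libraries of 3′ tags are designed to count that part of a transcript. They come from the GENCODE vM21 transcripts on GRCm38, from chr3:86145346-86145545 on the plus strand and chr3:86144937-86145056 on the minus strand, and capitals mark bases within exons of the other gene. Of the 200 bases of Gm37933, 24 are shared and 176 its own, and of the 120 bases of Gm37493, 43 are shared and 77 its own.

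Gm37933: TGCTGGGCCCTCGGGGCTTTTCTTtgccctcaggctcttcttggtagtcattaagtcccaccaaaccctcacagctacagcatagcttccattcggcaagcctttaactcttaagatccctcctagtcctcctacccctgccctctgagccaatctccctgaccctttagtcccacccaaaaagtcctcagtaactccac

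Gm37493: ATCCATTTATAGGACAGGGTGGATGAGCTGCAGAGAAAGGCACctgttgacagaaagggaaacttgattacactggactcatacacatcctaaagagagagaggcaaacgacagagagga

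The 5 called loci had the same direction in both carrier genotypes. The log2 fold changes in Prm2+/Δc and in Prm2-/Δc, which share the WT libraries, were 8.68 and 8.85 for Gm37933, 4.91 and 4.14 for Pcgf5, and 3.47 and 3.30 for Eri3. For Fam110b they were -5.14 and -4.76, and for Rps20 -2.02 and -1.97. In the fit with 3 groups, the quasi-likelihood test of edgeR with Benjamini-Hochberg adjustment called 5 loci in Prm2+/Δc against WT (0.0269%) and 7 in Prm2-/Δc against WT (0.0376%). Eri3 was called in neither, with adjusted p of 0.128 and 0.117 in that test of edgeR with Benjamini-Hochberg adjustment, nor for the mean of both genotypes against WT in that fit (0.0856), with all 6 carriers higher. In the direct comparison of Prm2-/Δc with Prm2+/Δc from the same fit, in which WT libraries enter the filter and the estimate of spread but not the contrast, 4 loci were called (0.0215%), none of them among the 5. The differences between the carrier genotypes were 0.17 (SE 0.28) for Gm37933, -0.17 (SE 0.40) for Eri3, 0.37 (SE 0.51) for Fam110b and 0.06 (SE 0.22) for Rps20 on the log2 scale, and none of these comparisons shows that the genotypes are alike.

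Pooling hides loci that differ between the carrier genotypes, as the 4 called between them show. Prm2-/Δc males came from a cross of the Δc line with a separate Prm2 deletion line, so second allele and line cannot be told apart. Slc25a3, a mitochondrial phosphate carrier, had 1628, 1563 and 1422 normalised counts in WT, 114, 124 and 94.5 in Prm2+/Δc and 1593, 1423 and 1788 in Prm2-/Δc. It was low only in the 3 Prm2+/Δc libraries of the 9, and between the genotypes the log2 difference was 3.85 (SE 0.16; adjusted p = 1.13e-04 by the quasi-likelihood test of edgeR with Benjamini-Hochberg adjustment; higher in 3 of 3 Prm2-/Δc libraries). Adam30, a testis metalloprotease family member, had 506, 627 and 583 in WT, 468, 494 and 592 in Prm2+/Δc and 40.6, 67.4 and 66.3 in Prm2-/Δc. Here the Prm2-/Δc libraries were the low ones, with a log2 difference of -3.16 (SE 0.24; adjusted p = 0.00569 by the quasi-likelihood test of edgeR with Benjamini-Hochberg adjustment; lower in 3 of 3). Fam102a and Ccnl1, a cyclin linked to splicing, were also lower in Prm2-/Δc, by log2 differences of -5.22 and -1.82 in 3 of 3 libraries each (adjusted p = 0.0399 for both by the quasi-likelihood test of edgeR with Benjamini-Hochberg adjustment). None of the 4 was called in the pooled comparison. These genes stand outside the naming rule and were chosen after their values were seen. Fitted on the 6 carrier libraries alone, 2 loci were called, both higher in Prm2-/Δc, and 1 of them was shared with the 4, so that the calls of Adam30, Fam102a and Ccnl1 were lost. The count of 4 was 12 without Prm2-/Δc replicate 1, 7 without replicate 2 and 23 without replicate 3 of that group, and 2 without Prm2+/Δc replicate 2.

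A wide gap between the groups was rare. Of 12540 loci averaging at least 50 normalised counts, 2 had every carrier over 2-fold above every WT library (0.0159%), Pcgf5 and Eri3, and 2 had every carrier over 2-fold below (0.0159%), Fam110b and Rps20. An over 10-fold range over the 9 libraries was seen at 1113 of these loci (8.88%). In 25 of the 1113 (2.25%) the carriers and WT did not overlap, 9 with carriers higher and 16 lower. Over all 18603 tested loci, 1.14% had all carriers higher and 1.04% had all carriers lower, so by this share wide loci did not stand out. By calls they did: Fam110b, Pcgf5 and Eri3, 3 of the 5 called loci, were among the 1113, where 0.0269% of all tested loci were called. A large fold change itself gives a locus a wide range. A neighbour of Eri3, MSTRG.15314, was wide through a single library, at 15.6 normalised counts in WT replicate 3 and 5189 to 6997 in the other 8 libraries. What sets such levels was not tested.

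Further named genes with groups that did not overlap were taken by lowest unadjusted p and were not called by edgeR. DESeq2 called Ergic2, Trappc12, Pnpla1, Gm47270 and Ing4 among those described below. The smallest adjusted p above the called loci over all loci was 0.472 by the quasi-likelihood test of edgeR with Benjamini-Hochberg adjustment. Ergic2, a protein that cycles between endoplasmic reticulum and Golgi, had 613, 960 and 469 normalised counts in WT and 1037, 3424 and 4208 as lowest, median and highest in carriers. Trappc12, a subunit of a vesicle tethering complex, had 162, 155 and 145 in WT and 194, 359 and 390 in carriers. In both genes 1 Prm2-/Δc library lay far below the other carriers and close to WT, replicate 3 for Ergic2 and replicate 1 for Trappc12. Without that library each was called, at adjusted p = 0.0149 for Ergic2 and 0.0251 for Trappc12 by the quasi-likelihood test of edgeR with Benjamini-Hochberg adjustment, where the highest adjusted p with another library left out was 0.99998 for both.

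Stub1, a ubiquitin ligase that works with chaperones, had 147, 135 and 165 normalised counts in WT and 219, 288 and 372 in carriers (log2 fold change 0.96, SE 0.20). Ppp4r2, a regulatory subunit of protein phosphatase 4, had 757, 692 and 851 in WT and 1095, 1258 and 1635 in carriers (0.78, SE 0.14). These gaps were narrow, 1.33-fold for Stub1 and 1.29-fold for Ppp4r2 between the nearest libraries of the groups. C1qtnf4, a secreted protein related to complement C1q, reached 0.55 on the log2 scale, AC104834.1 0.77 and the noncoding RNA 1700017L05Rik 0.85. Pnpla1, a lipid acyltransferase known from skin, and the noncoding RNA Gm47270 had no count in WT and lowest, median and highest values in carriers of 5.80, 12.5 and 17.0 for Pnpla1 and 4.23, 9.17 and 12.3 for Gm47270. Against the floor of 3 counts per WT library, summed over the group, they were at least 3.59-fold and 2.50-fold higher. In all, 8 tested rows had WT at the floor and carriers apart from it, and 1 had carriers at the floor, Gm37493.

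Ing4, a reader of histone H3 methylation in a histone acetyltransferase complex, was the most abundant of the lower named genes after Rps20. It had 10187, 10403 and 10390 normalised counts in WT, 2621, 2829 and 2428 in Prm2+/Δc and 2826, 3663 and 6747 in Prm2-/Δc. The WT libraries were within a few percent of each other and every carrier was lower, with Prm2-/Δc replicate 3 between the groups. Its log2 fold change was -1.56 (SE 0.30) with an adjusted p of 0.687, and without Prm2-/Δc replicate 3 it was called at an adjusted p of 0.00180, both by the quasi-likelihood test of edgeR with Benjamini-Hochberg adjustment, where the highest value with another library left out was 0.99998. Slc44a2, a choline transporter-like protein, had 317, 300.0 and 354 in WT and 43.4, 53.9 and 276 in carriers. Its highest carrier, Prm2+/Δc replicate 1, nearly reached WT, and without it the gene was called at an adjusted p of 0.0156 by the quasi-likelihood test of edgeR with Benjamini-Hochberg adjustment, against up to 0.999995 with another library left out.

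Kcnma1, a calcium-activated potassium channel, had 40.4, 55.4 and 37.7 normalised counts in WT and 14.1, 17.2 and 26.0 as lowest, median and highest in carriers (log2 fold change -1.24, SE 0.28). The nearest libraries of the groups were 1.45-fold apart, and the gene was not called. Other genes in this group were Lhx1, a LIM homeobox transcription factor, at -1.70, Pprc1, a coactivator, at -0.86 and Mbd6, of the methyl-CpG binding domain family, at -0.66 on the log2 scale. Mbd6 had 588, 641 and 647 in WT and 343, 391 and 460 as lowest, median and highest in carriers. The interleukin receptor kinase Irak1 was at -1.35 and the noncoding RNA Gm28874 at -1.53.

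**Figure D4:**
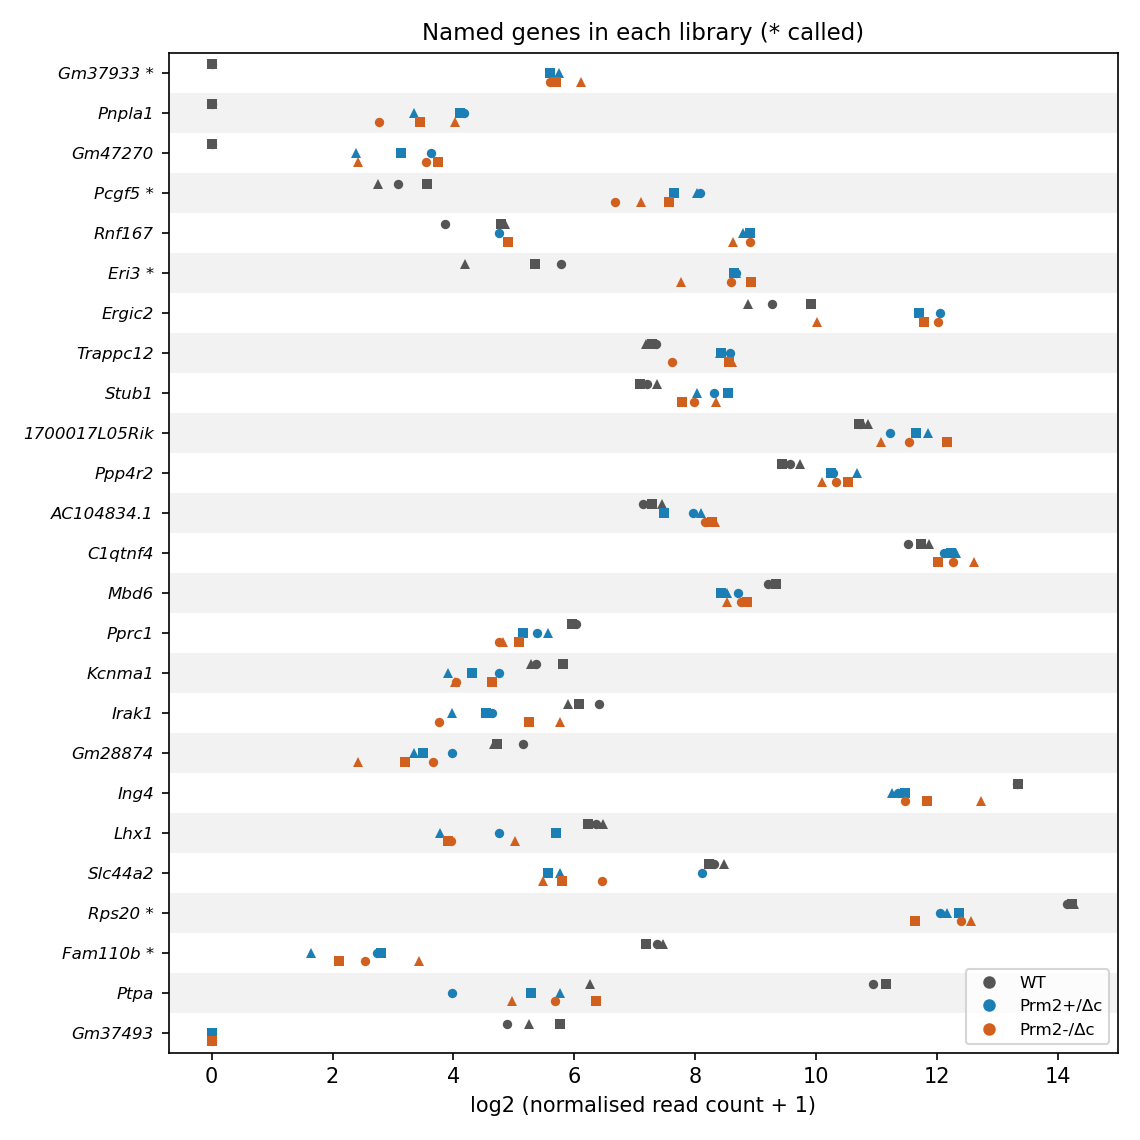
Log2 of the normalised read count plus 1 in the 9 libraries, for the called loci, the named loci next in unadjusted p whose groups do not overlap, and the study's genes for both genotypes (colour, genotype; shape, replicate), ordered by log2 fold change of carriers against WT; asterisks mark the 5 called loci. The carriers overlap WT in Rnf167 and Ptpa, which come from the study's list; most others were chosen for not overlapping.

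The study's list of genes that differed in both genotypes has 9 members, and all of them were looked at. The 5 called loci are among them, with Ergic2, Gm37493, Rnf167 and Ptpa. The list was chosen on these libraries and its agreement in direction is not independent evidence. Rnf167, a ubiquitin ligase, had 13.5, 26.5 and 27.9 normalised counts in WT, 26.0, 480 and 439 in Prm2+/Δc and 477, 28.8 and 394 in Prm2-/Δc. It was high in 4 of 6 carriers, while 1 library of each carrier genotype was at the WT level, and DESeq2 called it where edgeR did not. Ptpa, an activator of protein phosphatase 2A, had 1972, 2270 and 75.5 in WT and 14.7, 44.0 and 81.3 as lowest, median and highest in carriers. WT replicate 3 was at the level of the carriers. DESeq2 called Ptpa with all 9 libraries, and edgeR only without that library (adjusted p = 0.00454 by the quasi-likelihood test of edgeR with Benjamini-Hochberg adjustment; 0.472 with all 9 libraries, and up to 0.99998 with another library left out).

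Neighbours of the called loci were examined to see whether whole stretches of a chromosome moved. Within 6 loci on each side, 11 tested loci lay around Rps20, 7 around Fam110b, 8 around Pcgf5 and 8 around Eri3, and the quasi-likelihood test of edgeR with Benjamini-Hochberg adjustment called 0 of them; their lowest unadjusted p values were 0.00683, 0.0947, 0.246 and 0.157. Their log2 fold changes ranged from -1.12 to 0.71 around Rps20, -0.78 to 0.30 around Fam110b, -0.13 to 0.16 around Pcgf5 and -0.40 to 0.75 around Eri3. Rps20 had 1 neighbour whose groups did not overlap, MSTRG.14513 at -1.12. Over all loci, 1.14% had all carriers higher than WT and 1.04% had all carriers lower. Of the 11 neighbours of Rps20, 3 had an unadjusted p under 0.05, which held for 3.52% of all loci. These 3 did not share a direction, at -1.12 (MSTRG.14513), -0.66 (MSTRG.14511) and 0.71 (MSTRG.14514). Their WT means were 28.8, 51.9 and 29.5 normalised counts in that order. Around Gm37933, 5 loci were tested, of which Gm37493 differed as described and the other 4 lay between -0.13 and 0.06. Rps20 and Fam110b are close in locus order, with 8 numbered loci between them and 1.81e+06 bases between their ends. The 7 of these that were tested ranged from -0.13 to 0.45, and the groups overlapped in all 7.

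**Figure D5:**
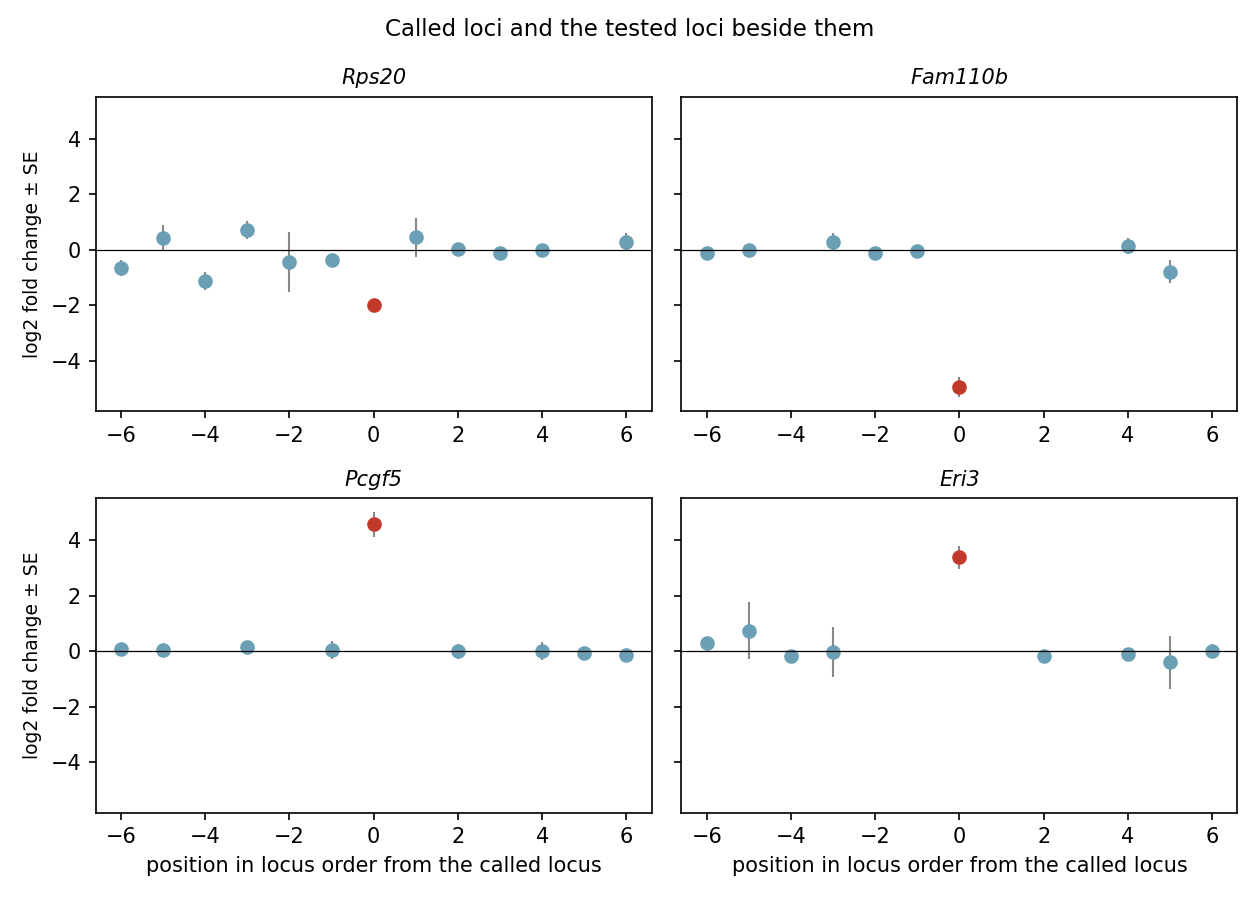
Log2 fold change of carriers against WT with its SE (vertical lines) for 4 called loci (red) and the tested loci within 6 places on each side in locus order (blue). The neighbours lie between -1.12 and 0.75; Gm37933, beside Gm37493, is not drawn.

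Other annotated genes overlap the called ones. Within the span of Rps20 the annotation has the small nucleolar RNA Gm24016, within Fam110b the pseudogenes Gm11796 and Gm11797 and the small nucleolar RNA Gm24337, within Eri3 the microRNA gene Gm25559, and within Pcgf5 the pseudogenes Gm47773 and Gm9042, the small nuclear RNA Gm23170 and the antisense gene F530104D19Rik. None of these had a row of its own under its name, so tags from them could be counted in the larger locus, and this was not tested. Rps20 also belongs to a gene family with many processed pseudogenes, and how the authors' counting shared reads among such copies is not given in the sources used here.

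Along the genome, 12244 tested loci could be placed on a chromosome through named loci on both sides. Of the 5 called, 3 lay on chromosome 4, which held 1021 of the placed loci, 1 on chromosome 3 with 737 and 1 on chromosome 19 with 424. Loci whose groups did not overlap made up 2.25% of the placed loci, ranging from 0 of 108 loci on chromosome 18 to 4.74% of 232 loci on chromosome 16. Within 100 loci on each side of the locus read as Prm2, 133 loci were tested, and the quasi-likelihood test of edgeR with Benjamini-Hochberg adjustment called 0; 3 were higher in all carriers and 4 lower (5.26% together). These 7 were numbered loci with unadjusted p of 0.0187 at the lowest, for MSTRG.8540 at a log2 fold change of -0.60, and the median log2 fold change of all 133 was 0.01.

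The genes of spermatid nuclear remodelling, tail and head were covered by few named rows. Of 27 genes of histone-to-protamine exchange 4 had a row, all of them the loci read by order, and none had an unadjusted p under 0.05. Of 24 genes of the sperm head and acrosome 2 had a row, Cylc1 and Adam30. Cylc1, a protein of the sperm head cytoskeleton, had 4380, 4073 and 4113 normalised counts in WT, 765, 693 and 711 in Prm2+/Δc and 857, 945 and 5943 in Prm2-/Δc. It was low in 5 of 6 carriers and above WT in Prm2-/Δc replicate 3, and its unadjusted p was 0.0925. Of 26 genes of tail and energy supply only Ttll6, a tubulin glutamylase, had a row (log2 fold change -0.97), and of 27 genes of oxidative stress and DNA damage only Mgst1, a glutathione transferase (-1.89), neither with an unadjusted p under 0.05. Since under 80% of their genes have a row, these lists do not describe the processes they are named for. The same holds for all lists below except that of the epididymis, which has a limit of its own given there.

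Of 30 genes of meiosis and recombination, 5 were tested and 1 was lower at an unadjusted p under 0.05 (1.67% of all loci were), M1ap (log2 fold change -1.18, unadjusted p = 0.0450 from edgeR). The median of the list was -0.98, against 0.00 over all loci. Every tested member but Prdm9, which was at 0.28, owes its name to the study's lists, so this median is no independent evidence. M1ap had 709, 695 and 304 normalised counts in WT, 110, 154 and 170 in Prm2+/Δc and 157, 527 and 394 in Prm2-/Δc. Rpa1, which binds single-stranded DNA, had 1763, 1558 and 1365 in WT and 35.1, 1630 and 1454 in Prm2+/Δc. In Prm2-/Δc it had 34.8, 37.0 and 21.7. Prm2+/Δc replicate 1 was low with the Prm2-/Δc libraries, while the other Prm2+/Δc libraries were at the WT level. Of 19 genes of germ cell RNA processing and piRNAs, 4 had a row and 2 were tested, and 1 had an unadjusted p under 0.05 with carriers higher (1.84% of all loci did). This was Tdrd1, a Tudor domain protein of the piRNA pathway (log2 fold change 2.83, unadjusted p = 0.0264 from edgeR), which was called by neither edgeR nor DESeq2. It had 157, 166 and 128 in WT and was at 154 to 180 in 3 carriers and 1538 to 2221 in the other 3. Both tested members of this list, Tdrd1 and Crem, owe their names to the study's lists, so 1 of 2 is no independent evidence.

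Of 85 ribosomal protein genes, 3 had a row and 2 were tested, Rps20 and Rpl18. Rpl18, of the large subunit, had 4187, 4167 and 3932 normalised counts in WT, 2759, 4634 and 2567 in Prm2+/Δc and 2593, 2264 and 2809 in Prm2-/Δc. It was lower in 5 of 6 carriers and above WT in Prm2+/Δc replicate 2, with a log2 fold change of -0.48 and an unadjusted p of 0.0413 from edgeR. The other ribosomal protein genes were not analysed here, so the fall of Rps20 cannot be set against the rest of the ribosome.

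The list of ubiquitin and proteasome genes had 11 of 22 members tested, and 8 were higher at an unadjusted p under 0.05, where the share over all loci was 1.84%, with a median log2 fold change of 1.83 against 0.00 over all loci. All 11 numbered loci of this list owe their names to the study's lists, so this count is no independent evidence. None was called by edgeR. DESeq2 called 3, Trim17, Rnf167 and Fbxo34, where it called 37 of 29541 loci in all. Trim17, a ubiquitin ligase, had 563, 727 and 973 normalised counts in WT, 3362, 3510 and 3486 in Prm2+/Δc and 3788, 4577 and 616 in Prm2-/Δc. It was high in 5 of 6 carriers and at the WT level in Prm2-/Δc replicate 3. Dtx2, another ligase, had 4.10 to 4.82 in WT, 499, 8.58 and 3.52 in Prm2+/Δc and 590, 3.29 and 28.2 in Prm2-/Δc, so that its log2 fold change of 5.35 came from 1 library of each genotype. Psmd4, a ubiquitin receptor of the proteasome, was lower in 5 of 6 carriers (log2 fold change -1.37) but at 5957 in Prm2-/Δc replicate 2, against 4321 to 5096 in WT.

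Markers of the cells of the testis were examined to check the tissue and its makeup. Of 14 spermatogonial genes 4 had a row and 3 were tested: Kit at a log2 fold change of -0.54, Sall4 at -0.11 and Zbtb16 at -0.12, none with an unadjusted p under 0.05. The Sertoli cell list had rows for 2 of 13 genes, Amh and Fshr, both with no count in any library. The Leydig cell list had 1 of 10, Lhcgr, at 6.34 to 26.5 normalised counts over the 9 libraries. Of the peritubular myoid list 1 of 8 had a row, Myl9, which was at 504 and 572 in 2 WT libraries and 6.56 in the other, and at 4.52 to 675 in carriers. Of 12 genes of macrophages and other leukocytes 5 had a row and 2 were tested, Ptprc and Adgre1, both under 25 normalised counts in every library, and of 8 endothelial genes 5 had a row and 3 were tested, with a median log2 fold change of 0.16. None of these lists had a member with an unadjusted p under 0.05. The epididymis list, the only 1 with more than 80% of its genes in the table (10 of 12, 83.3%), had no count in any library. Its rows, and those of Amh and Fshr, carry Ensembl identifiers, and such rows took 0.391% of all counts. A row of this kind was thus likely to be low or empty, and these zeros do not check the tissue.

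Of 7 red blood cell genes 3 had a row and 1 was tested, Hbb-bs, the adult beta globin. It had 578, 381 and 491 normalised counts in WT, 783, 1010 and 1415 in Prm2+/Δc and 567, 688 and 1137 in Prm2-/Δc, with a log2 fold change of 0.95 and an unadjusted p of 0.0107 from edgeR. The groups overlapped only at Prm2-/Δc replicate 1, and it was not called. The summed level of the list, nearly all of it Hbb-bs, was 591, 381 and 495 in WT and 573 to 1418 in carriers. Any part of blood content in the 5 calls was not tested.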

How the data were processed

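Gene-level estimated counts were deposited by the authors for 9 testis libraries. Per the submitters' processing notes, reads were mapped to GRCm38 with HISAT2 2.1, and loci were assembled and quantified with StringTie 1.3.3. They also name DESeq2 1.16.1. The methods state that a script of the StringTie package prepared the gene-level count tables for DESeq2. The deposited estimated counts held 0 values that were not whole, so no further rounding was needed. The read length given to that script and the strand setting are not given in the sources used here.

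Printed normalised read counts were scaled with the size factors of DESeq2, and fits used TMM scaling. Rows kept by filterByExpr (18603) were fitted with edgeR 4.0.16 in R 4.3.3 (glmQLFit, glmQLFTest) for 6 carriers against 3 WT libraries; loci with a Benjamini-Hochberg adjusted p below 0.05 whose log2 fold change exceeded 1 in size are termed called. A fit with 3 groups gave the comparison of the carrier genotypes. Alternatives were DESeq2 1.42.0, other scalings, filters and cutoffs, counts multiplied by 1.5, a block on replicate number, and leaving out each library. Scripts were tested on simulated data.

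Rows were named by their Ensembl identifier or through the study's lists, which were used for names and membership only. Genes described are the locus read as Prm2, up to 12 named loci in each direction whose groups do not overlap (called ones first, then by lowest unadjusted p), the study's 9 genes for both genotypes, and called members of the fixed lists; some genes that these rules name are not reported here. Those lists were histone-to-protamine exchange, sperm head and acrosome, sperm tail and energy, meiosis and recombination, germ cell RNA processing and piRNAs, ribosomal proteins, ubiquitin and proteasome, oxidative stress and DNA damage, and markers of spermatogonia, Sertoli, Leydig and peritubular myoid cells, leukocytes, endothelium, red blood cells and epididymis. Members and lists were chosen with earlier results of these data known. Floors of 3 counts per library cover counting error only.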

Additional observations from a re-analysis of the deposited data

Results flagged for a closer look

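The 6 carrier values of the named genes, and the library totals, were compared in 30 sets: the gap of the highest or lowest library to the nearest other was set against the range of all 6 (critical ratio 0.625). In 7 of the 30, 1 library lay beyond that ratio, and 5 of the 7 were Prm2-/Δc replicate 3. Chance flags about 1 in 20 sets of values drawn alike, but most of these genes were chosen on the same values, and the rate over all loci was not measured. That library was highest for Gm37933 at 68.4 normalised counts (next 52.9), for Ing4 at 6747 (next 3663) and for the locus read as Prm1 at 435441 (next 234251). It was lowest for Eri3 at 216 (next 386) and for Ergic2 at 1037 (next 3328). Prm2-/Δc replicate 1 was lowest for Trappc12 at 194 (next 338), and Prm2+/Δc replicate 1 was highest for Slc44a2 at 276 (next 86.9). Of the 7, only the locus read as Prm1 had carriers that overlapped WT.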

How the results depend on the processing

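The 5 calls were the same 5 genes with DESeq2 size factors, library totals, no filter, a mean of at least 10 counts, counts multiplied by 1.5 and no cutoff on the fold change. DESeq2 called 37, glmTreat against a log2 fold change of 1 called 3, and the 3-group mean 6, of which 4 were shared. With a replicate block, edgeR's quasi-likelihood test called 0 loci, and at an unadjusted p under 0.05 it had 285 higher and 255 lower. The log2 fold changes of the 5 were then 8.81 (Gm37933), 4.59 (Pcgf5), 3.46 (Eri3), -4.94 (Fam110b) and -2.002 (Rps20), with adjusted p of 0.0613 to 0.0858 by edgeR with Benjamini-Hochberg adjustment. The labels give each group the numbers 1 to 3, but only 2 of 9 libraries correlated best with their own number and the correlations of same-numbered deviations were -0.229 to 0.0697, so the numbers are not taken to pair the libraries. Leaving out 1 library gave 4 to 22 calls. Between the carrier genotypes, 2 loci were called in the 6 carriers alone, 1 of them among the 4 calls. DESeq2 called 55, the replicate block 2, both among the 4, and fits with 1 library left out 2 to 23.

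With 1 library left out, the log2 fold change ranged from -0.079 to 0.054 for Prm2 and from -0.18 to 0.21 for Prm1, changing sign without WT replicate 3 (0.054 and -0.010), Prm2+/Δc replicates 1 and 2 (Prm2, 0.027 and 0.013) and Prm2-/Δc replicate 3 (Prm1, -0.18); with the replicate block Prm1 was at -0.0019. Of the other values of named genes, 410 kept their direction and side of the threshold, 14 passed it and 12 no longer did; the cause was not tested. For loci at 0 in 1 group, depth gives only a bound on the fold change.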
